A study of Schizosaccharomyces pombe with 2 samples.

Results

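The genes examined here are *ste6*, *ste4*, *byr1*, *spk1* and *shk2*, 5 of the 4997 features of a fission yeast (*Schizosaccharomyces pombe*) expression array, which encode components of the cascade that runs from the GTPase Ras1 to a MAP kinase during mating. They were taken by name from the study's list of 64 genes with lower expression in *lsg1Δ* cells. Wild-type cells (JY450, *h90 ade6-M216 leu1*) and *lsg1Δ* cells (JT659, *h90 lsg1::kanR ade6-M216 leu1*) were starved of nitrogen for 2.5 h according to the sample titles, although a treatment label of both samples gives 2 h. The homothallic background and the *ade6* and *leu1* alleles are common to both strains, which differ by the replacement of the whole *lsg1* ORF, encoding the γ subunit of the Pol II CTD kinase CTDK-I. A single-color (Cy3) array was run for either strain, 1 in each case. No p-value can be computed from these, and what the deletion did cannot be told apart from how 2 cultures or 2 arrays happened to differ. Because the 5 genes were chosen on this very contrast, their ratios are a description and not evidence of a direction.

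In starved fission yeast, mating pheromone binds a receptor on the partner cell and the signal passes through the G protein subunit Gpa1 and through Ras1. Ste6 loads Ras1 with GTP. Ras1 and the adaptor Ste4 both bind the MAPK kinase kinase Byr2, which acts on the MAPK kinase Byr1, which in turn activates the MAPK Spk1. Shk2 is a kinase of the PAK family, which is controlled by the GTPase Cdc42, itself downstream of Ras1. The cascade is needed for conjugation and for entry into meiosis, and several of its genes are targets of the transcription factor Ste11.

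Every feature of interest had 7 probes, each printed at 2 spots on the array, and the intensity of a probe below is the scanned mean of its 2 spots in arbitrary units. Median spot intensity was 6737 on the wild-type array and 5685.5 on the *lsg1Δ* array. The deposited files carry no gene names. Each of the 5 genes was therefore identified as the feature whose ratio in the authors' normalized table equals the ratio listed for that gene, the differences being at most 5.3e-06 and the next feature lying at least 0.00333 away in log2 ratio. For the deleted gene, 7 of 7 probes were above background in wild-type (median intensity 3309) and 0 of 7 in *lsg1Δ* (median intensity 197). Its feature was also named through its listed lower ratio. A lower signal in *lsg1Δ* was thus built into that choice and is no independent check of the strain labels. A probe is called above background when it exceeds the lowest 5% of spots of its array, which was 1108.65 in wild-type and 912 in *lsg1Δ*.

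All 5 genes of the cascade had lower signals in *lsg1Δ* cells. Before any correction, each of the 35 probes was dimmer on the *lsg1Δ* array than on the wild-type array. The *lsg1Δ* array was itself the dimmer one, with a median spot intensity of 5685.5 against 6737. Uncorrected ratios here and below include that difference, and how many of all probes were dimmer was not counted. After background correction and normalization between the arrays, the log2 ratios of *lsg1Δ* over wild-type ranged from -2.52 for *ste6* to -0.88 for *byr1*, with a median of -1.62, whereas over all 4997 features the median was 0.01 and the 5th and 95th percentiles were -0.42 and 0.42. Of the 5 genes, 4 were lower by more than 2-fold, a size reached by 1.06% of all features (53 features), while 0.34% were higher by as much. As the choice of genes used this contrast, nothing is read from that count. A smaller number of mating-competent cells and less RNA per cell cannot be told apart in these bulk samples.

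**Figure D1:**
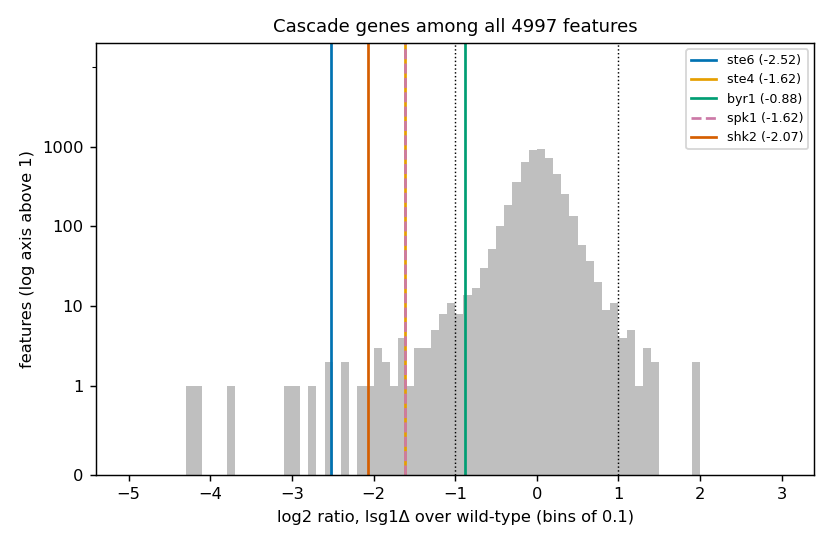
Distribution of the log2 ratio of lsg1Δ over wild-type over all 4997 features (bars, number of features per bin of 0.1, on an axis that is linear from 0 to 1 and logarithmic above), with the 5 cascade genes as vertical lines and 2-fold changes as dotted lines. The lines of ste6, shk2, spk1 and ste4 lie beyond 2-fold, those of spk1 and ste4 coincide at -1.62, and that of byr1 lies at -0.88.

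At the entry of the cascade, *ste6*, the exchange factor of Ras1, was 5.75-fold lower in *lsg1Δ* (log2 ratio -2.52, SD 0.93 over 7 probes). The SD here and below is the spread among probes of 1 gene on the same 2 arrays and does not measure how cultures vary. In wild-type, the *ste6* probes had intensities of 6447, 4481.5, 5801.5, 6701.5, 16155.5, 13207 and 6459.5 in the order of their position in the gene. In *lsg1Δ* the same probes had intensities of 1003.5, 582.5, 1065.5, 1336, 3956.5, 4504.5 and 2637.5. Each probe was dimmer in *lsg1Δ* than the same probe in wild-type. The second probe was not above background in *lsg1Δ*, at 582.5 against a limit of 912. That limit is a percentile of spots and not a measured background. On the same array the probes of the deleted gene had a median of 197. The ratio of the second *ste6* probe was -3.72 in log2 after correction and normalization, and its uncorrected wild-type signal was 7.69-fold that of *lsg1Δ*. How far the correction shaped this ratio was not tested. This gene ranked 8th from the lowest ratio among all features.

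The adaptor gene *ste4* was 3.06-fold lower (log2 ratio -1.62, SD 0.38 over 7 probes). Its probe intensities in wild-type were 4922, 3965.5, 6643, 4269, 4030.5, 5224.5 and 2189, and in *lsg1Δ* 2230.5, 1864, 2317, 1451.5, 1351.5, 1606.5 and 733.5. Probe by probe, the uncorrected wild-type signal was 2.13-fold to 3.25-fold that of *lsg1Δ*. The last probe was not above background in *lsg1Δ*. The ratios of its probes lay between -2.04 and -1.002, all past 2-fold, the highest narrowly so.

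The MAPK kinase gene *byr1* had the smallest difference of the 5 genes and the most even one, 1.84-fold (log2 ratio -0.88, SD 0.10 over 7 probes). In wild-type its probes had intensities of 8315.5, 11872.5, 9928, 12000, 12104, 12074 and 22158.5. In *lsg1Δ* they had intensities of 4096, 5269, 5149.5, 5557.5, 5442, 5796.5 and 11685.5. Probe by probe, the uncorrected wild-type signal was 1.896-fold to 2.25-fold that of *lsg1Δ*, a range that includes the lower brightness of the *lsg1Δ* array. The ratios of the probes lay between -0.997 and -0.74, and 0 of 7 were past 2-fold. The spread among *byr1* probes was below that of most features, 15.3% of features having a smaller probe SD. In the authors' normalized table, where 1.28% of features are lower by more than 2-fold, *byr1* is past that limit, with values of 7725.8 in wild-type and 3818.7 in *lsg1Δ* (log2 ratio -1.02). It lies near the edge of the list from which the genes were taken, with 2 features between it and the 2-fold limit. The feature just inside that limit is at -1.005 and the feature just outside, unnamed here, at -0.995.

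The gene of the terminal MAPK, *spk1*, was 3.07-fold lower (log2 ratio -1.62, SD 0.56 over 7 probes). Its probe intensities in wild-type were 20584.5, 39165.5, 29139, 22393, 27739.5, 14171 and 25731.5. In *lsg1Δ* they were 2997.5, 8545.5, 6495.5, 6554.5, 10251.5, 4984 and 9964.5. Each probe was dimmer in *lsg1Δ*, and all 7 were above background in both strains. The ratios lay between -2.75 and -1.19, all 7 past 2-fold. In the authors' table, with values of 19261.34 and 5079.9, the log2 ratio is -1.92.

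The PAK-family kinase gene *shk2* was 4.19-fold lower (log2 ratio -2.07, SD 0.45 over 7 probes). In wild-type its probe intensities were 9035, 16234.5, 16232.5, 18224, 16288.5, 11756.5 and 5751, and in *lsg1Δ* 3425.5, 4795.5, 3885, 3432, 3631.5, 1944 and 1423.5. Probe by probe, the uncorrected wild-type signal was 2.64-fold to 6.05-fold that of *lsg1Δ*. The ratios lay between -2.65 and -1.27, all 7 past 2-fold. It ranked 12th from the lowest ratio here and 8th in the authors' table, where its values are 9875.75 and 1701.9 (log2 ratio -2.54).

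**Figure D2:**
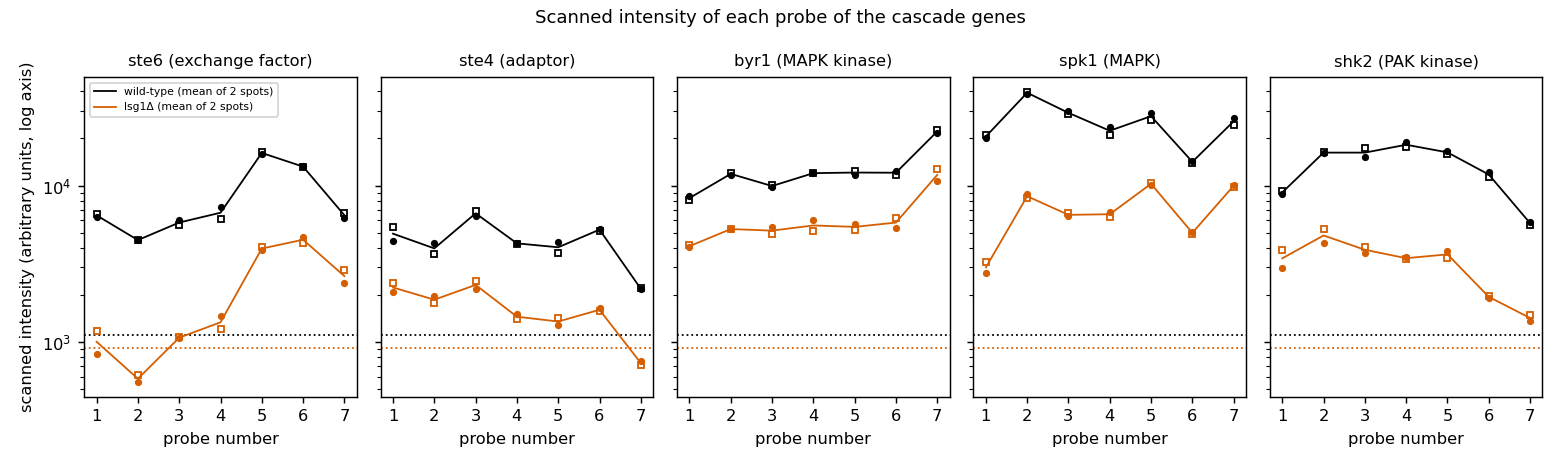
Scanned intensity (arbitrary units, log axis) of the 7 probes of each cascade gene, numbered by position in the gene, in wild-type (black) and lsg1Δ (orange), with filled circles and open squares for the 2 spots of a probe, lines through their means and dotted lines at the background limit of each array (1108.65 and 912). Every lsg1Δ line runs below the wild-type line, 1 lsg1Δ probe of ste6 and 1 of ste4 lie under the background limit, and the gap narrows along ste6 and spk1.

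The tiers were then set against each other by their probe ratios and not by their intensities. Background treatment moved the ratios of different genes by different amounts, and whether ratios scale alike between genes was not tested. The probe ratios of *byr1* did not overlap with those of *ste6*, *ste4*, *spk1* or *shk2*, and *byr1* was the least lowered of the 5. From *ste4* the separation was slight, the lowest *byr1* ratio being -0.997 and the highest *ste4* ratio -1.002, and single spots of these genes did overlap (*byr1* down to -1.09 and *ste4* up to -0.96). The other 6 of the 10 pairs of genes overlapped. *ste4* and *spk1* differed by only 0.003 in log2 ratio, much less than the probe SD of either. *ste6* minus *shk2* was -0.46 in log2 ratio, against probe SDs of 0.93 and 0.45. The difference between the MAPK kinase gene and the MAPK gene, 0.74 in log2 ratio, exceeded both of their probe SDs. Over the 12 ways of processing the arrays, *byr1* was less lowered than *ste6*, *spk1* and *shk2* in all 12, and less than *ste4* in 11. The exception was the RMA background adjustment, with -1.39 for *byr1* and -1.18 for *ste4*. *ste6* had the lowest ratio in 10 of 12, and *shk2* in the RMA adjustment and in the authors' table. The order of *ste6* and *shk2*, and that of *ste4* and *spk1*, thus depended on the processing.

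**Figure D3:**
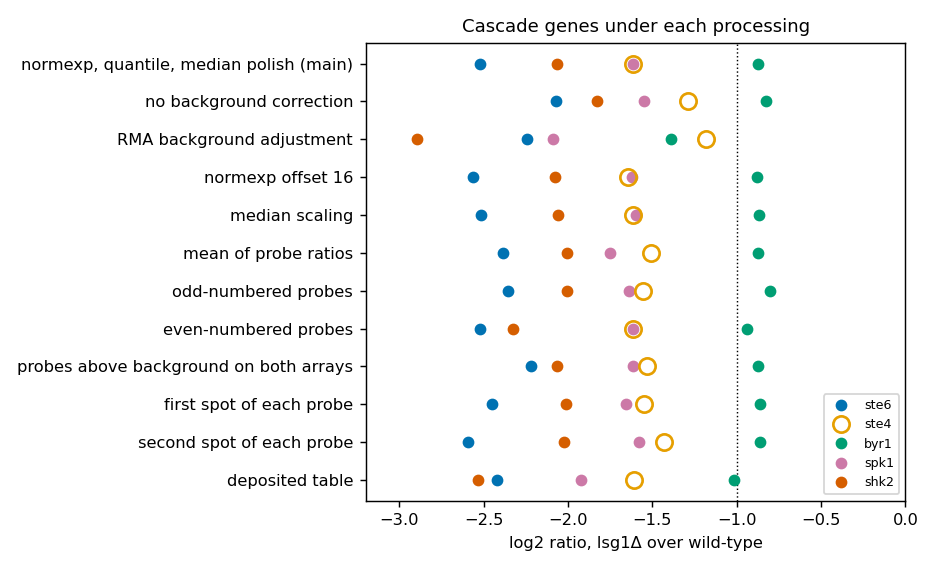
Log2 ratio of lsg1Δ over wild-type of the 5 cascade genes under each of the 12 ways of processing the arrays (rows), with ste4 as open circles and 2-fold lower as a dotted line. The byr1 points lie to the right of the others except with the RMA background adjustment, and pass 2-fold only there (-1.39) and in the authors' deposited table (-1.02).

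Within a gene, the size of the difference varied with the position of the probe, and not in the same way in each gene. The array files number positions along a feature, but no source used here states the end from which they count. Along *ste6*, the ratios of the 7 probes were -3.15, -3.72, -2.79, -2.52, -1.92, -1.41 and -1.19. Before any correction, the wild-type signal was 6.42-fold that of *lsg1Δ* at the first probe and 2.45-fold at the last. The first 4 and the last 3 *ste6* ratios did not overlap, with or without the second probe, which was not above background in *lsg1Δ*. Probes 1 and 3 were close to the limit of 912 there, at 1003.5 and 1065.5. The 2 spots of probe 1, at 839 and 1168, lay on either side of that limit. Leaving out the second probe alone therefore does not free the comparison from low signal.

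Along *spk1* the ratios ran the same way, at -2.75, -2.05, -2.02, -1.62, -1.26, -1.36 and -1.19. Its uncorrected ratio of wild-type over *lsg1Δ* was 6.87-fold at the first probe and 2.58-fold at the last. All *spk1* probes were above background in both strains. *ste4* and *shk2* ran the opposite way, with larger differences at the later probes. The *ste4* ratios were -1.03, -1.002, -1.45, -1.62, -1.66, -1.75 and -2.04. Those of *shk2* were -1.27, -1.63, -1.95, -2.33, -2.07, -2.65 and -2.14. The *byr1* ratios, at -0.84, -0.997, -0.76, -0.94, -0.98, -0.88 and -0.74, showed no such trend.

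The median ratio of the last 3 probes minus that of the first 3 was 1.74 for *ste6*, 0.79 for *spk1*, -0.03 for *byr1*, -0.51 for *shk2* and -0.72 for *ste4*. Over the 4996 features with 7 probes, the 5th and 95th percentiles of this value were -0.26 and 0.32, and 4 of the 5 genes lay outside. Other lowered genes also had wide spreads, since in absolute size the value for *ste6* was reached by 1 of the 59 others, that of *spk1* by 7, that of *ste4* by 10 and that of *shk2* by 17. With no background correction the values were 1.13 for *ste6*, 0.77 for *spk1*, -0.44 for *ste4* and -0.39 for *shk2*. With the RMA adjustment they were 0.11 for *ste6* and 0.02 for *ste4*, the 2 genes with a probe not above background in *lsg1Δ*, but 1.06 for *spk1* and -0.71 for *shk2*. The trend along *ste6* and *ste4* therefore depended on how background was treated. That of *ste6* stayed positive but shrank to 0.11 with the RMA adjustment, and that of *ste4* changed sign there, to 0.02. The trends along *spk1* and *shk2* kept their signs in these settings and varied in size. By the RefSeq annotation, *ste6*, *byr1* and *shk2* each overlap 1 long noncoding RNA gene, and *ste6*, *ste4* and *spk1* each overlap 1 other protein-coding gene, namely *glm2*, SPAC1565.03 and *hem4*. No source used here states the strand of the probes, so signal of such neighbors cannot be told apart, and their part in the trend was not tested.

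**Figure D4:**
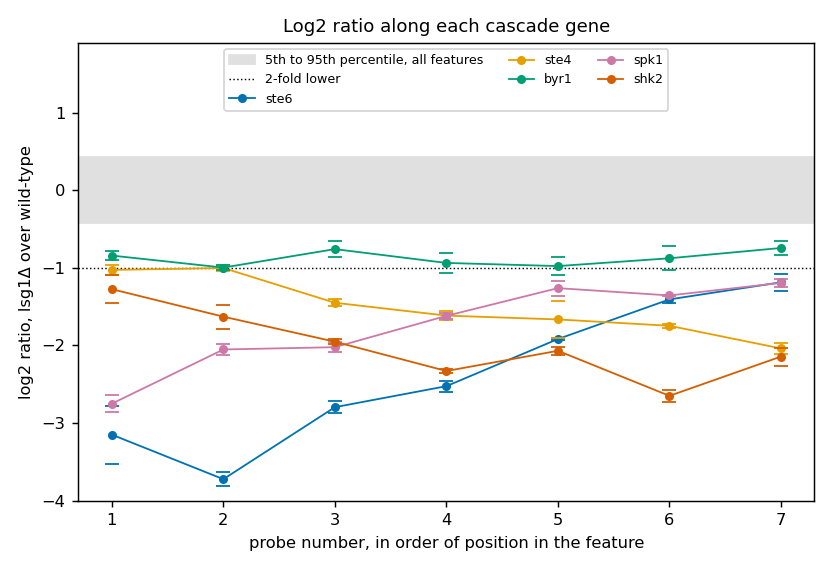
Log2 ratio of lsg1Δ over wild-type of each probe of the 5 cascade genes, in order of position in the gene (circles, mean of 2 spots; short bars, each spot alone), with the 5th to 95th percentile of all features in gray and 2-fold lower as a dotted line. The ratios of ste6 and spk1 move toward 0 at later probes, those of ste4 and shk2 move away from 0, and those of byr1 stay between -0.997 and -0.74.

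The second spot of each probe is the only repeated measurement in these data. Of the 35 probes, 28 were past 2-fold on the mean of both spots, against 1.38% of all 34977 probes. These were all 7 probes of *ste6*, *ste4*, *spk1* and *shk2*, and 0 of *byr1*. For 26 of the 35, both spots were past 2-fold. As the genes were chosen on this contrast, nothing is read from these counts. Between the spots of a probe, the log2 ratio differed by a median of 0.16 in *ste6*, 0.12 in *ste4*, 0.20 in *byr1*, 0.13 in *spk1* and 0.16 in *shk2*, and by a median of 0.17 over all probes. Of the 35 probes 1 exceeded the 95th percentile of that difference over all probes, 0.50, namely the first *ste6* probe, at -3.52 and -2.78. The trends along *ste6*, *spk1*, *ste4* and *shk2* had the same sign in either spot alone, at 2.17 and 1.32, 0.73 and 0.96, -0.85 and -0.69, and -0.48 and -0.65, respectively.

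Of the other genes of the cascade, few could be examined. A list of 14 genes from Ras1 and its regulators to the MAPK and the Cdc42 branch has a named feature for 6, the 5 genes above and *gpa1*, and all of them except *byr1*, that is 5 genes, were past 2-fold in the direction of lower expression, against 1.06% of all features. That count was all but fixed in advance. The list holds all 64 features past this limit in the authors' table, so the unnamed genes, where the array has them, are not past it there. The features of *ras1*, *gap1*, *byr2*, *shk1*, *cdc42*, *scd1*, *scd2* and *cpp1* are unnamed here. A feature can be named only if the list of lowered genes holds it, so the MAPK kinase kinase and the GTPase, which stand between *ste6* and *byr1*, were not analysed here. The same holds for the 5 listed genes of the stress MAPK cascade and the 3 of the cell integrity MAPK cascade. Among the other 59 named genes, the nearest in log2 ratio over the 2 arrays was *mei2*, the master regulator of meiosis, for *ste6* (-2.53), *mam2*, the P-factor receptor gene, for both *ste4* and *spk1* (-1.60), *cdc10*, encoding a subunit of the MBF transcription factor, for *byr1* (-0.89), and *map1*, encoding a mating transcription factor, for *shk2* (-2.12). With 1 ratio per gene such nearness is a description only. In the authors' table the neighbors of 4 of the genes are further apart, with *mei2* at -3.22 and *ste6* at -2.42, *mam2* at -2.16 against -1.61 for *ste4* and -1.92 for *spk1*, and *map1* at -1.91 and *shk2* at -2.54. For *byr1* and *cdc10* the values there are -1.02 and -1.04.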

How the data were processed

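Total RNA was labeled, hybridized and scanned by Roche Applied Science for the authors. The deposited scanner files give a linear intensity for each of 69954 spots per array, with no background values. The authors also deposited normalized intensities per feature, likewise linear (medians 4109.88 for wild-type and 4026.31 for *lsg1Δ*), without a stated method. Rows repeated in that table were used once, and feature identifiers in sorted order were assigned to its rows. In that order its log2 values and those computed here had a Pearson r across features of 0.981 and 0.982.

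With limma 3.58.1 (R 4.3.3), background was corrected by normexp (offset 50) and arrays were quantile-normalized. Log2 values of the 2 spots of a probe were averaged, and probes were summarized by median polish. No filter was applied, and calls past 2-fold were counted over all 4997 features. No test was made, as 1 array per strain gives no measure of how cultures vary. Figures were drawn with matplotlib 3.10.9.

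In a simulation of 4997 features, built from the wild-type array and its spot noise, 100 of 100 features lowered 3-fold were found (median log2 ratio -1.78 for a true -1.58), as were 48 of 50 lowered 6-fold (-2.96 for a true -2.58). Both missed features had a median wild-type intensity under the background limit. Falls were thus overestimated in the simulation, which scaled background along with signal. Of 4797 unchanged features 0 were called. Both simulated arrays were built from the same wild-type values, and every probe of a feature had the same fold. Apart from a uniform shift in brightness, differences between cultures or arrays were not simulated. The 0 calls therefore give no rate of false calls for the real arrays.

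The genes, lists, alternatives and naming rule were chosen with earlier results of these data known. The rule names the 5 genes, *lsg1*, the nearest other named gene of each, and the cascade list. The overlapping genes and the comparison of first and last probes were added after the values were seen. Names were checked in RefSeq (ASM294v3), whose coordinates served only to find genes that overlap the 5 genes in that assembly. None is printed, because no source states the build behind the array. The planned promoter motif search was not run, as no sequences were used here.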

Additional observations from a re-analysis of the deposited data

How the results depend on the processing

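No paired analysis was possible because there is a single array for either strain and nothing was tested. Of 55 values of the 5 genes under the 11 alternatives, 50 stayed within the probe SD, 5 moved and 0 changed sign. The probe SD was that of the gene itself, from 0.10 for *byr1* to 0.93 for *ste6*. A shift that counts as moved for *byr1* can thus count as unmoved for *ste6*. With the RMA background adjustment the log2 ratio was -1.18 for *ste4*, -1.39 for *byr1* and -2.90 for *shk2*, and in the authors' deposited table -1.02 for *byr1* and -2.54 for *shk2*. Without background correction it was -2.07 for *ste6* and -1.29 for *ste4*, both counted as unmoved. The causes were not tested. The count of the 5 genes past 2-fold was 4 or 5, the fifth being *byr1*. Features lower by more than 2-fold numbered 39 to 66. Features higher by more than 2-fold numbered 17, but 26 under the RMA adjustment and 6 without background correction. Leaving out 1 probe at a time, an alternative chosen after seeing the data, kept *ste6* between -2.66 and -2.22, *spk1* between -1.82 and -1.49, *ste4* between -1.64 and -1.53, *byr1* between -0.91 and -0.86, and *shk2* between -2.11 and -2.01. In *lsg1Δ*, 1 probe of *ste6* and 1 of *ste4* were not above background, and without them the log2 ratios were -2.22 and -1.53. Probes 1 and 3 of *ste6*, at 1003.5 and 1065.5, were only slightly above the limit of 912 and were kept.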
